A study of Homo sapiens with 9 samples.

Results

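The 10 genes described here encode the machinery that makes and uses microRNAs: DROSHA, DGCR8, XPO5, DICER1, AGO1, AGO2, AGO3, TNRC6A, TNRC6B and TNRC6C. They were chosen by name from the 60671 genes counted in each library, with earlier results of these data known. All 10 passed the filter on low counts that left 19812 genes to test. The counts come from RNA sequencing of C28/I2, a human chondrocyte line that was immortalised for culture. There were 3 libraries of cells transduced with a short hairpin RNA against CA2, named CA2 shRNA, 3 named Scrambled and 3 named Control. CA2 encodes carbonic anhydrase 2, which interconverts carbon dioxide and bicarbonate. The labels give neither the Scrambled construct nor whether the Control cells were transduced, and they give no dose or time. The labels name neither the hairpin's sequence nor how many hairpins were used, so an effect of lower CA2 and any other effect of the hairpin cannot be told apart. The labels do not say whether the libraries of a group came from separate cultures. A p-value here therefore sets a difference between groups only against the scatter between libraries, which may be technical.

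A microRNA begins as a hairpin in a longer transcript. DROSHA, with its RNA-binding partner DGCR8, cuts the hairpin out in the nucleus, exportin-5 (XPO5) carries it to the cytoplasm, and Dicer (DICER1) cuts off the loop. An Argonaute protein keeps 1 strand as a guide and pairs it with messenger RNAs, mainly in their 3′ untranslated regions (3′ UTRs). TNRC6 proteins, also called GW182 proteins, bind the Argonaute and bring in the CCR4-NOT and PAN2-PAN3 deadenylases, which shorten the poly(A) tail before the cap is removed. A short hairpin RNA made inside the cell uses the same exportin, Dicer and Argonautes. In mice, loss of Dicer from growth plate chondrocytes disturbs their proliferation and differentiation.

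The CA2 transcript checked the labels. It had 1.4, 0.905 and 1.10 CPM (a gene's share of all counts, scaled to a fixed total and by TMM factors) in the 3 CA2 shRNA libraries, against 1.82, 1.96 and 2.06 CPM in the Scrambled and 2.31, 2.00 and 1.94 CPM in the Control libraries. Every CA2 shRNA library was lower than every other library, and CA2 fell by 0.77 against Scrambled and by 0.86 against Control on the log2 scale (adjusted p = 0.0276 and 0.0159, edgeR's quasi-likelihood test). The level was low in all groups, with between 15 and 66 reads per library. Totals ranged from 16994368 to 34261244 counts per library. Of 10 chondrocyte markers, 4 reached a median of 1 CPM over the 9 libraries, among them SOX9 at 92.6 CPM and COL2A1 at 1.65 CPM. COL9A1 had no count in any library. Markers of other cells reached it too: 3 of 3 neural (SNAP25 at 17.7 CPM), 1 of 3 epithelial (KRT18 at 97.3 CPM) and 1 of 4 endothelial (VWF at 2.26 CPM). It was reached by 0 of 5 immune and 0 of 4 muscle and fat markers. These levels alone do not settle the label of the line. Scrambled 2 and Control 3 stood apart from their groups: 4.08% and 4.06% of their counts were mitochondrial, against 5.55% to 6.87% in the other 7 libraries. These 2 libraries were closer to each other in their counts than to any library of their own group, so results were also computed without them.

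In the CA2 shRNA libraries 3 of the 10 genes rose, 1 fell and 6 did not pass against Scrambled, and the counts were the same against Control. DICER1, AGO2 and TNRC6A rose and TNRC6B fell in both comparisons, which share the CA2 shRNA libraries. That is 4 of 10 genes past an adjusted p of 0.05 in each comparison. Of all tested genes 16.9% passed against Scrambled (8.02% rose, 8.88% fell) and 14.7% against Control (6.41% rose, 8.26% fell). The share was higher among the 13959 tested protein-coding genes with an annotated 3′ UTR, the kind of gene that all 10 are. Of those, 11.3% rose and 10.7% fell against Scrambled, and 8.93% rose and 10.5% fell against Control. The median log2 change of the 10 genes was 0.07 against Scrambled, beside -0.03 over all tested genes, and 0.10 against Control, beside -0.0048 over all tested genes. Without Scrambled 2 and Control 3, the count was again 4 in each comparison, with 3 genes up and 1 down. The shares over all genes given above do not carry over to that fit. Under the 18 alternatives, which include it, 2059 to 4289 genes passed against Scrambled and 1962 to 3662 against Control. The libraries of the 2 groups did not overlap for 5 of the 10 genes in each comparison, against 32.3% of all tested genes for Scrambled and 33.0% for Control. In bulk RNA, fewer cells of a kind and less RNA per cell cannot be told apart.

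**Figure D1:**
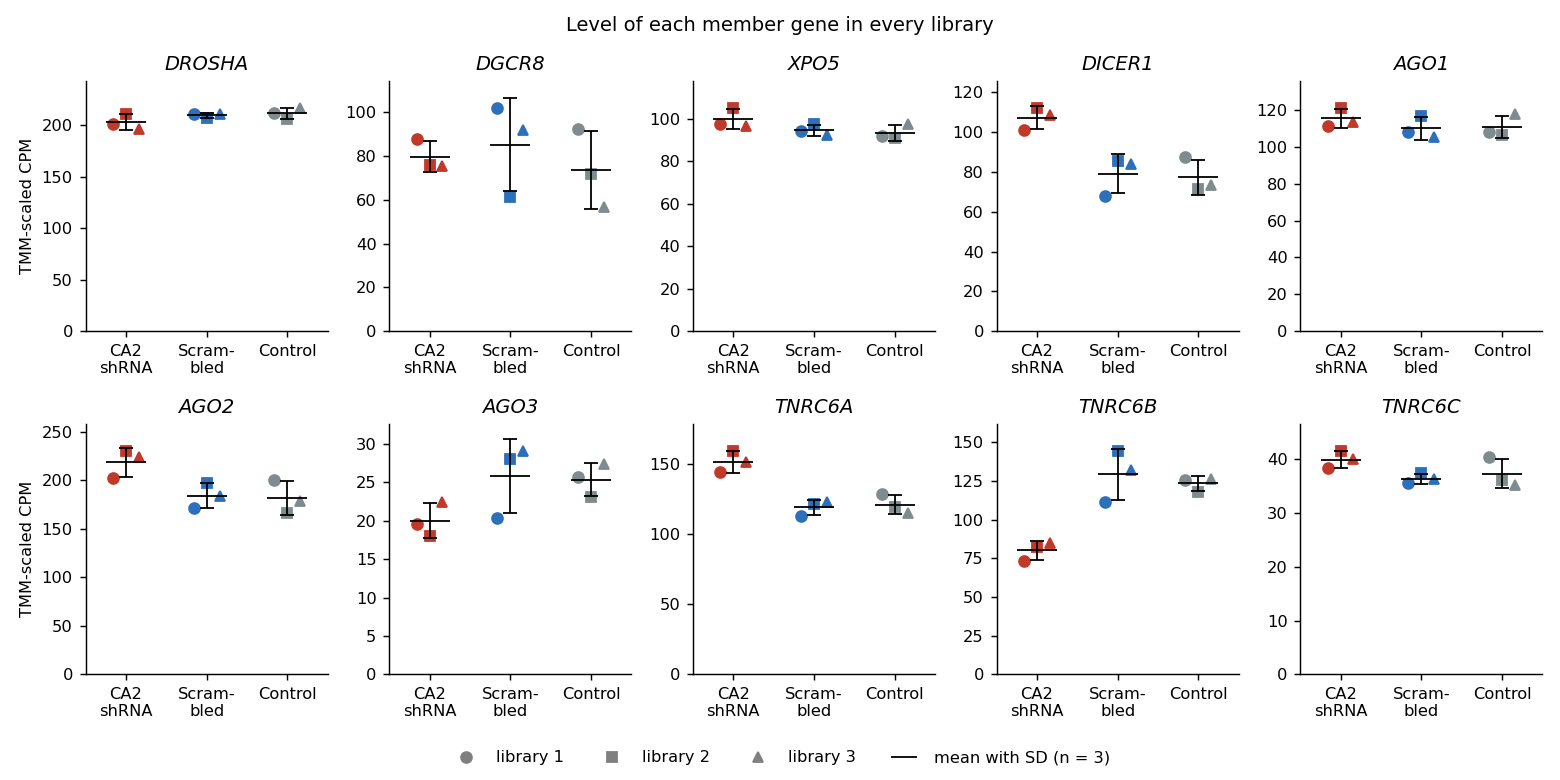
Level of each of the 10 genes in TMM-scaled CPM (vertical axes from 0) in every CA2 shRNA, Scrambled and Control library; symbols mark libraries 1 to 3, and lines give the mean and SD of 3 libraries. The CA2 shRNA libraries lie above all others for DICER1, AGO2 and TNRC6A and below all others for TNRC6B.

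**Figure D2:**
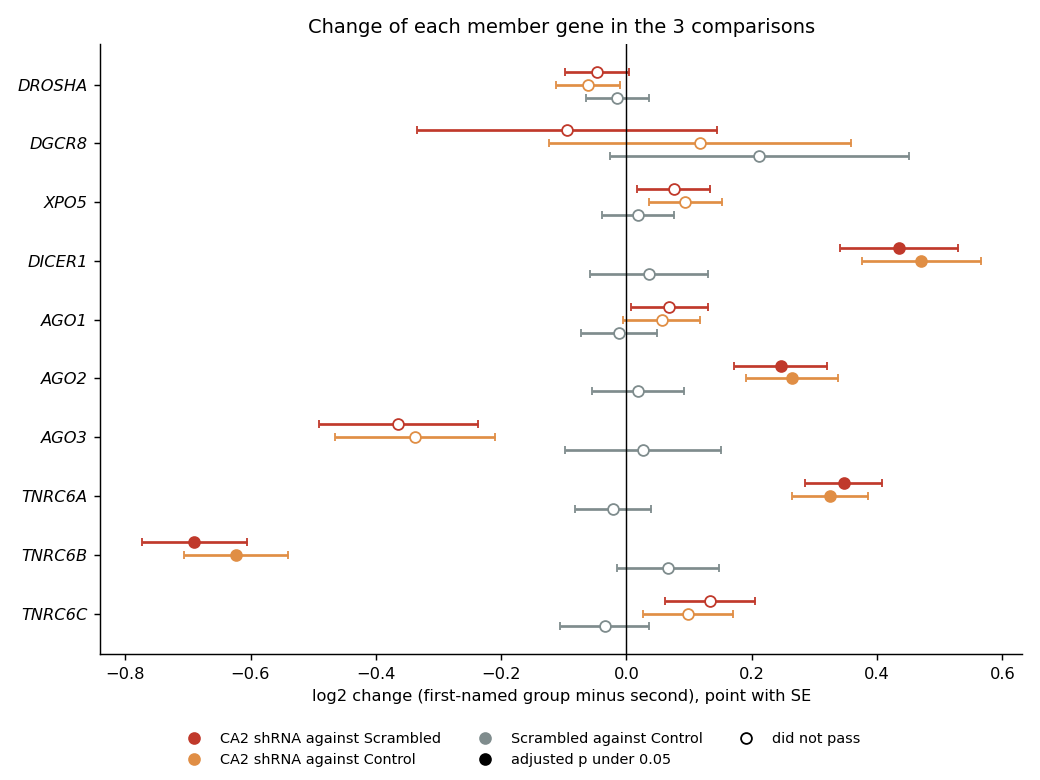
Log2 change of each of the 10 genes in 3 comparisons, first-named group minus second, with the standard error as bars; filled points have an adjusted p under 0.05. DICER1, AGO2 and TNRC6A are filled on the right and TNRC6B on the left in both CA2 shRNA comparisons, and no point is filled for Scrambled against Control.

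The sequences that follow are a selection of the places where 3′ UTRs of the pathway held ACACCAA or CACCAAA, words of 7 bases that an earlier account of these libraries had found in many falling genes. They come from 4 of the 5 holders among the 10 genes and from the 2 pathway genes outside the 10 that fell most, and are shown because DICER1 rose while TNRC6B, CNOT6 and PABPC4 fell. AGO2, which rose, also holds ACACCAAA at 1 place, and that place and those of other pathway genes are not printed. Each is from GRCh38 and is written 5′ to 3′ on the strand of the messenger RNA, with the matching letters in capitals and up to 11 bases on either side. All lie in the 3′ UTR of the gene named, as annotated by GENCODE 29. TNRC6B holds 1 match on chromosome 22, DICER1 holds 2 on chromosome 14 and AGO1 holds 1 on chromosome 1. AGO3, on chromosome 1, holds 5, of which the one with all 8 letters of ACACCAAA is printed. CNOT6, a CCR4-NOT deadenylase on chromosome 5, holds 2, and PABPC4, a poly(A)-binding protein gene on chromosome 1, holds 1.
TNRC6B, chr22:40329826-40329854, plus strand: agtgtttgcctCACCAAAtttaaatcgtt
DICER1, chr14:95088319-95088347, minus strand: ttgattcctggCACCAAAatcagattgtt
DICER1, chr14:95086981-95087009, minus strand: aagattgaagcCACCAAActgagaccttg
AGO1, chr1:35927350-35927379, plus strand: gctcagtgataACACCAAAgactcagtttc
AGO3, chr1:36071900-36071929, plus strand: tataattagaaACACCAAAtgctgaatcct
CNOT6, chr5:180576044-180576073, plus strand: aagttgtgctgACACCAAAcacatccagtt
CNOT6, chr5:180576687-180576716, plus strand: aatgaacagtcACACCAAAatagactatga
PABPC4, chr1:39561029-39561057, minus strand: tatggacctcaACACCAAggattacaaat

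Neither gene of the nuclear step passed the test in any comparison. DROSHA (ENSG00000113360, chromosome 5, 31400497 to 31532196, minus strand) is the RNase III enzyme of that step. It had 201, 211 and 196 CPM in the CA2 shRNA libraries, 211, 207 and 210.2 CPM in the Scrambled libraries and 211, 206 and 217 CPM in the Control libraries. These libraries overlapped, and the log2 change was -0.05 against Scrambled (95% interval -0.17 to 0.08) and -0.06 against Control (-0.19 to 0.06). Its SD was 7.50 CPM in CA2 shRNA cells, 2.17 CPM in Scrambled cells and 5.31 CPM in Control cells. DGCR8 (ENSG00000128191, chromosome 22, 20080232 to 20111877, plus strand), the RNA-binding partner, had the largest standard error of the 10 genes in each comparison. It had 87.8, 75.6 and 75.3 CPM in the CA2 shRNA libraries, 101.9, 61.1 and 92.0 CPM in the Scrambled libraries and 92.2, 71.5 and 56.8 CPM in the Control libraries.

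The lowest DGCR8 values were those of Scrambled 2 and Control 3, the pair of libraries that stood apart. The log2 change of DGCR8 was -0.09 against Scrambled (SE 0.24, 95% interval -0.68 to 0.49, adjusted p = 0.848) and 0.12 against Control (SE 0.24, interval -0.47 to 0.71, adjusted p = 0.826). Without the 2 libraries it was -0.26 against Scrambled (adjusted p = 0.0693) and -0.015 against Control (adjusted p = 0.949). Their part in these values was not tested further. The exons of DGCR8 contain the microRNA genes MIR3618 and MIR1306 in full on the same strand, and both were listed with 0 counts in every library. Reads there belong to DGCR8 exons as well, so the 0 counts do not show whether these microRNA transcripts were present. The log2 ratio of DROSHA to DGCR8, from length-scaled levels (RPKM), was 1.26 ± 0.14 in the CA2 shRNA libraries, 1.24 ± 0.37 in the Scrambled libraries and 1.46 ± 0.37 in the Control libraries (SD, n = 3 each). It did not differ beyond the spread against Scrambled (p = 0.9) or Control (p = 0.4) in an exact two-sided permutation test, whose smallest possible p with 3 libraries against 3 is 0.1.

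XPO5 did not pass the test, and DICER1 rose. XPO5 (ENSG00000124571, chromosome 6, 43522334 to 43576038, minus strand) had 97.2, 105 and 96.7 CPM in the CA2 shRNA libraries, 94.2, 97.3 and 92.1 CPM in the Scrambled libraries and 91.7, 90.7 and 97.4 CPM in the Control libraries. Its log2 change was 0.08 against Scrambled (95% interval -0.07 to 0.22, adjusted p = 0.429) and 0.09 against Control (-0.05 to 0.24, adjusted p = 0.339), with overlapping libraries. XPO5 shares 348 exon bases, 4.10% of its exon length, with POLR1C on the opposite strand, and reads there cannot be assigned without the strand setting. DICER1 (ENSG00000100697, chromosome 14, 95086228 to 95158010, minus strand) had 101, 112 and 108 CPM in the CA2 shRNA libraries, against 67.9, 85.5 and 84.0 CPM in the Scrambled and 87.5, 71.2 and 73.2 CPM in the Control libraries. All 3 CA2 shRNA libraries were above all 6 others.

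DICER1 averaged 107 ± 5.77 CPM in CA2 shRNA cells, 79.1 ± 9.77 CPM in Scrambled cells and 77.3 ± 8.89 CPM in Control cells (SD, n = 3 each). It rose to 135% of the Scrambled mean (log2 change 0.43, SE 0.09, adjusted p = 0.00601) and to 139% of the Control mean (0.47, SE 0.09, adjusted p = 0.0038). The rise passed under all 18 alternative settings tried in both comparisons. The genes whose log2 CPM over the 9 libraries lay nearest to that of DICER1 were CHD7, DNAJC24 and PTGER4, at Euclidean distances of 0.186, 0.187 and 0.202 after centring. The median distance over the 12147 candidate genes was 0.787. TARBP2, which encodes the TRBP protein that binds Dicer, also rose, to 37.3 ± 4.25 CPM in CA2 shRNA cells, against 29.3 ± 2.53 CPM in Scrambled and 27.5 ± 0.936 CPM in Control cells (log2 change 0.35 and 0.43, adjusted p = 0.0111 and 0.00225).

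Among the Argonaute genes AGO2 and AGO4 rose, while AGO1 and AGO3 did not pass. AGO2 (ENSG00000123908, chromosome 8, 140520156 to 140635633, minus strand), the human Argonaute best known for cutting its target, had 202, 230.2 and 224 CPM in the CA2 shRNA libraries, against 171, 198 and 184 CPM in the Scrambled and 201, 166 and 179 CPM in the Control libraries. The CA2 shRNA libraries did not overlap the others, but the lowest of them lay only just above Control 1. AGO2 rose to 119% of the Scrambled mean (log2 change 0.25, SE 0.07, adjusted p = 0.03) and to 120% of the Control mean (0.26, SE 0.07, adjusted p = 0.0224). Single libraries decided these calls. Against Scrambled the adjusted p was 0.151 without CA2 shRNA 2, 0.0578 without CA2 shRNA 3, 0.1 without Scrambled 1 and 0.102 without Scrambled 3. Against Control it was 0.135 without CA2 shRNA 2, 0.16 without Control 2 and 0.0715 without Control 3. The nearest profiles to AGO2 were those of GALK2, SMAGP and ABL2, at distances of 0.144, 0.152 and 0.158, with a median of 0.555 over the candidates.

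AGO1, AGO3 and AGO4 lie next to each other on the plus strand of chromosome 1. AGO4 (ENSG00000134698) spans 35808016 to 35857890, AGO1 (ENSG00000092847) spans 35869808 to 35930532 and AGO3 (ENSG00000126070) spans 35930718 to 36072500. All 3 encode Argonautes that bind guide RNAs. AGO1 had 112, 121 and 114 CPM in the CA2 shRNA libraries, 108, 117 and 105 CPM in the Scrambled libraries and 108, 107 and 118 CPM in the Control libraries. Those libraries overlapped, and the log2 change was 0.07 against Scrambled (95% interval -0.08 to 0.22) and 0.06 against Control (-0.09 to 0.21). AGO3 had 19.6, 18.0 and 22.4 CPM in the CA2 shRNA libraries, 20.3, 28.0 and 29.1 CPM in the Scrambled libraries and 25.7, 23.0 and 27.3 CPM in the Control libraries. Every CA2 shRNA library was below every Control library, while Scrambled 1 lay among the CA2 shRNA libraries.

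AGO3 did not pass, at a log2 change of -0.36 against Scrambled (SE 0.13, adjusted p = 0.0692) and -0.34 against Control (SE 0.13, adjusted p = 0.104). Its intervals, -0.68 to -0.05 and -0.65 to -0.02, did not reach 0. Leaving out Scrambled 1 gave an adjusted p of 0.00055 against Scrambled. AGO4, the neighbour upstream of AGO1, rose to 34.2 ± 1.45 CPM in CA2 shRNA cells, against 27.9 ± 0.408 CPM in Scrambled and 27.5 ± 0.850 CPM in Control cells (log2 change 0.29 and 0.31, adjusted p = 0.00677 and 0.00447).

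Of the TNRC6 genes, whose proteins link Argonautes to the deadenylases, TNRC6B fell, TNRC6A rose and TNRC6C did not pass. TNRC6B (ENSG00000100354, chromosome 22, 40044817 to 40335808, plus strand) had 73.2, 82.2 and 84.7 CPM in the CA2 shRNA libraries, against 111, 144 and 132 CPM in the Scrambled and 126, 118 and 126 CPM in the Control libraries. The highest CA2 shRNA library was well below the lowest of the others. TNRC6B fell to 62.0% of the Scrambled mean (log2 change -0.69, SE 0.08, adjusted p = 3.35e-05) and to 64.9% of the Control mean (-0.62, SE 0.08, adjusted p = 9.06e-05). It passed under all 18 alternatives in both comparisons.

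TNRC6A (ENSG00000090905, chromosome 16, 24610209 to 24827632, plus strand) went the other way. It had 144, 159 and 151 CPM in the CA2 shRNA libraries, against 113, 121 and 123 CPM in the Scrambled and 128, 119 and 115 CPM in the Control libraries. No library overlapped between the CA2 shRNA cells and the others. TNRC6A rose to 127% of the Scrambled mean (log2 change 0.35, SE 0.06, adjusted p = 0.000591) and to 125% of the Control mean (0.32, SE 0.06, adjusted p = 0.00108), again under all 18 alternatives. TNRC6C (ENSG00000078687, chromosome 17, 77959240 to 78108835, plus strand) had 38.3, 41.5 and 40.0 CPM in the CA2 shRNA libraries, 35.5, 37.4 and 36.3 CPM in the Scrambled libraries and 40.4, 36.2 and 35.3 CPM in the Control libraries. It lay above every Scrambled library but overlapped the Control libraries, and did not pass (log2 change 0.13 and 0.10, adjusted p = 0.233 and 0.434). TNRC6C shares 1439 exon bases, 13.0% of its exon length, with TMC6 on the opposite strand.

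The levels of different genes can be compared only per length, here as RPKM, CPM per kilobase of a gene's joined exons. DROSHA was highest in every group, with a mean of 25.9 ± 0.479 RPKM in CA2 shRNA cells, 27.0 ± 0.321 RPKM in Scrambled cells and 27.0 ± 0.767 RPKM in Control cells (SD, n = 3 each). AGO3 was lowest, at 0.944 ± 0.121, 1.22 ± 0.221 and 1.19 ± 0.106 RPKM in CA2 shRNA, Scrambled and Control cells, and TNRC6C was next lowest in each. In CA2 shRNA cells AGO2 came second at 13.7 ± 0.820 RPKM. XPO5 (11.7), TNRC6A (11.6) and DGCR8 (10.8 RPKM) followed without separating from each other, then DICER1 (8.41) and AGO1 (8.28 RPKM), whose libraries overlapped, and TNRC6B (3.99 RPKM). In Scrambled cells AGO2, DGCR8 and XPO5, at 11.7, 11.7 and 11.2 RPKM, were not separated, and TNRC6A (9.19 RPKM) and AGO1 (7.95 RPKM) came next. TNRC6B (6.47 RPKM) and DICER1 (6.25 RPKM) overlapped in Scrambled cells, and so they did in Control cells at 6.14 and 6.07 RPKM. In CA2 shRNA cells these 2 genes were apart, with DICER1 above TNRC6B in every library.

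The make-up of the TNRC6 family differed between the groups, while its summed level overlapped. TNRC6A, TNRC6B and TNRC6C together came to 19.2 ± 0.792 RPKM in CA2 shRNA cells, 18.9 ± 1.24 RPKM in Scrambled cells and 18.8 ± 0.980 RPKM in Control cells (SD, n = 3 each). The sums overlapped (exact permutation p = 0.7 against Scrambled and 0.8 against Control). TNRC6A made up 60.9%, 61.0% and 59.8% of the sum in the CA2 shRNA libraries, 49.7%, 46.9% and 49.0% in the Scrambled libraries and 49.9%, 50.1% and 48.3% in the Control libraries. TNRC6B made up 20.1%, 20.5% and 21.8% of the sum in the CA2 shRNA libraries, 31.9%, 36.2% and 34.1% in the Scrambled libraries and 31.7%, 32.2% and 34.4% in the Control libraries. Both shares were separate between the CA2 shRNA libraries and all others, at the smallest p that an exact two-sided permutation test of 3 against 3 can give (0.1).

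The 4 Argonaute genes together came to 27.5 ± 1.19 RPKM in CA2 shRNA cells. Their sum was 24.6 ± 1.36 RPKM in Scrambled cells and 24.3 ± 1.51 RPKM in Control cells (SD, n = 3 each). The CA2 shRNA sums did not overlap the others (exact permutation p = 0.1 in both). The lowest of them, 26.18 RPKM, lay only just above Scrambled 2 at 26.10 RPKM. Within the sum AGO2 held 49.8 ± 0.845% in CA2 shRNA cells, 47.4 ± 0.825% in Scrambled cells and 47.1 ± 2.42% in Control cells. AGO3 held 3.43 ± 0.423% in CA2 shRNA cells, 4.96 ± 0.774% in Scrambled cells and 4.92 ± 0.241% in Control cells. The AGO3 share of every CA2 shRNA library was below that of all others, and the AGO2 share overlapped with Control (exact p = 0.1 against Scrambled and 0.2 against Control).

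**Figure D3:**
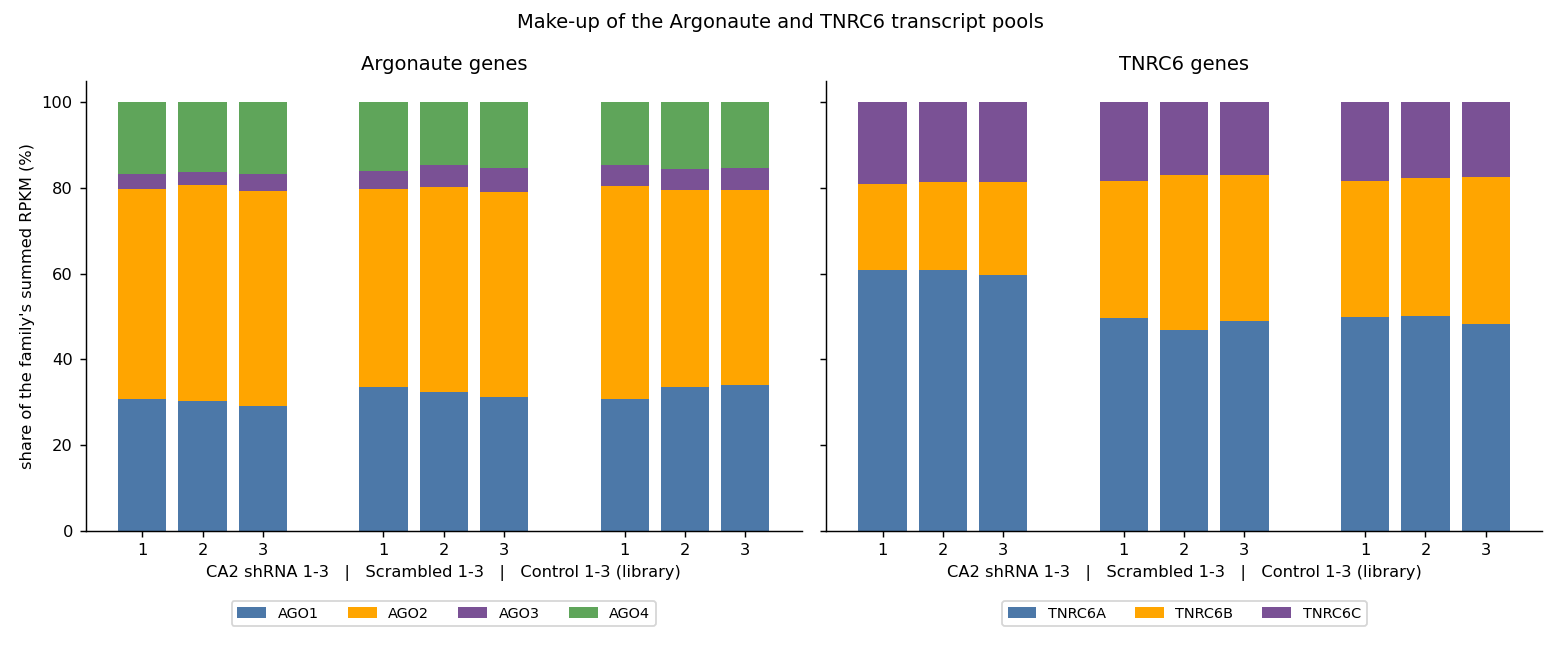
Share of each gene in the summed RPKM of its family (percent, vertical axis) in the 9 libraries, with AGO1 to AGO4 on the left and TNRC6A to TNRC6C on the right. The TNRC6B segment spans 20.1% to 21.8% in the CA2 shRNA libraries and 31.7% to 36.2% in the Scrambled and Control libraries.

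The other genes of the pathway were taken from 8 lists with 93 genes in all, 83 of them outside the 10. Of those 83, 80 were tested: 8 rose and 6 fell against Scrambled, or 17.5%, and 7 rose and 4 fell against Control, or 13.8%. These shares are near the 16.9% and 14.7% of all tested genes. They are lower than among tested protein-coding genes with an annotated 3′ UTR, where 11.3% rose and 10.7% fell against Scrambled. Against Control 8.93% of those rose and 10.5% fell. The median log2 change was 0.04 in both comparisons. It was -0.03 and -0.0048 over all tested genes, and 0.01 in both over those with an annotated 3′ UTR. Of all 90 tested pathway genes, the 10 included, 18 passed against Scrambled and 15 against Control. That count changed when single libraries were left out. Against Scrambled it was 9 without Scrambled 3, 11 without CA2 shRNA 2 and 30 without Scrambled 2. Against Control it was 23 without Scrambled 2. The number called over all genes moved as well under the 18 alternatives, from 2059 to 4289 against Scrambled and from 1962 to 3662 against Control. The swing is therefore not particular to the pathway genes. In the list of nuclear processing 1 of 16 genes rose and 1 fell in each comparison. The fall was that of SMAD4, a mediator of TGF-beta signals (50.0 ± 2.07 CPM in CA2 shRNA cells, 62.0 ± 5.29 CPM in Scrambled and 67.4 ± 3.50 CPM in Control cells, log2 change -0.31 and -0.43, adjusted p = 0.00549 and 0.000356). The rise was that of SRRT against Scrambled (0.22, adjusted p = 0.0361) and of SAFB2 against Control (0.27, adjusted p = 0.028).

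In the export and Dicer list 3 of 8 genes rose and 0 fell against Scrambled, namely DICER1, TARBP2 and TSN (0.31, adjusted p = 0.0408). Against Control 2 rose and 0 fell, and TSN did not pass (0.27, adjusted p = 0.0768). Of all tested genes 8.02% rose and 8.88% fell against Scrambled, and 6.41% rose and 8.26% fell against Control. The lists are short, and whether any differs from these shares was not tested. The Argonaute and PIWI list had 2 rises, AGO2 and AGO4, among 6 tested genes in each comparison, and PIWIL1 and PIWIL3 were too low to test. Among 15 Argonaute partners and turnover genes, 0 rose and 1 fell in each comparison. That was UPF1, the helicase of nonsense-mediated decay (-0.17 and -0.18, adjusted p = 0.0319 and 0.024). None of the 9 tested genes of precursor tailing and decay passed by edgeR's test, with 1 of 9 at an unadjusted p under 0.05 in each comparison, where 29.0% of all tested genes were so against Scrambled and 26.4% against Control. The best expressed of them were XRN2 and TUT4, at 179 ± 5.11 and 92.5 ± 3.26 CPM in CA2 shRNA cells, 160.2 ± 12.4 and 96.8 ± 5.19 CPM in Scrambled cells and 160.0 ± 10.6 and 95.2 ± 1.65 CPM in Control cells.

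The deadenylation list held the largest fall of the pathway. CNOT6, a catalytic subunit of CCR4-NOT, had 56.0, 53.0 and 60.4 CPM in the CA2 shRNA libraries, against 112, 134 and 123 CPM in the Scrambled and 121, 126 and 133 CPM in the Control libraries. No CA2 shRNA library came near the others, and CNOT6 fell to 46.0% of the Scrambled mean (log2 change -1.12, SE 0.07, adjusted p = 7.32e-09) and to 44.5% of the Control mean (-1.17, SE 0.07, adjusted p = 5.05e-09). PABPC4, which binds poly(A) tails, fell to 75.8 ± 3.39 CPM in CA2 shRNA cells, against 120.0 ± 2.18 CPM in Scrambled and 124 ± 2.78 CPM in Control cells (-0.66 and -0.70, adjusted p = 1.74e-07 and 7.65e-08). Among all tested genes 8.02% rose and 8.88% fell against Scrambled, and 6.41% rose and 8.26% fell against Control. Of 19 genes in the list 1 rose and 3 fell against Scrambled, and 2 rose and 2 fell against Control. The third fall was PAN2, the catalytic partner of PAN3 (-0.37, adjusted p = 0.0228), which did not pass against Control (-0.27, adjusted p = 0.0952) and shares 19.5% of its exon bases with CNPY2-AS1 on the opposite strand. CNOT9, which ties CCR4-NOT to TNRC6 proteins, rose (0.20 and 0.27, adjusted p = 0.0125 and 0.00132).

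In the list of decapping, decay and repression 3 of 14 genes rose and 1 fell against Scrambled, and 2 rose and 0 fell against Control. The shares over all tested genes were 8.02% up and 8.88% down against Scrambled, and 6.41% up and 8.26% down against Control. DCP2, the enzyme that removes the cap, had 60.6, 56.1 and 66.9 CPM in the CA2 shRNA libraries, against 27.8, 36.9 and 36.2 CPM in the Scrambled and 36.3, 37.7 and 35.9 CPM in the Control libraries. Each CA2 shRNA library was above each other library, and DCP2 rose to 182% of the Scrambled mean (log2 change 0.86, SE 0.10, adjusted p = 1.11e-05) and to 167% of the Control mean (0.74, SE 0.10, adjusted p = 4.83e-05). DCP1A, the activator of DCP2, rose as well (0.20 and 0.22, adjusted p = 0.0198 and 0.0128). DCPS rose and EIF4ENIF1 fell against Scrambled (0.22 and -0.25, adjusted p = 0.0409 and 0.0144) and neither passed against Control (0.20 and -0.15, adjusted p = 0.0754 and 0.156).

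**Figure D4:**
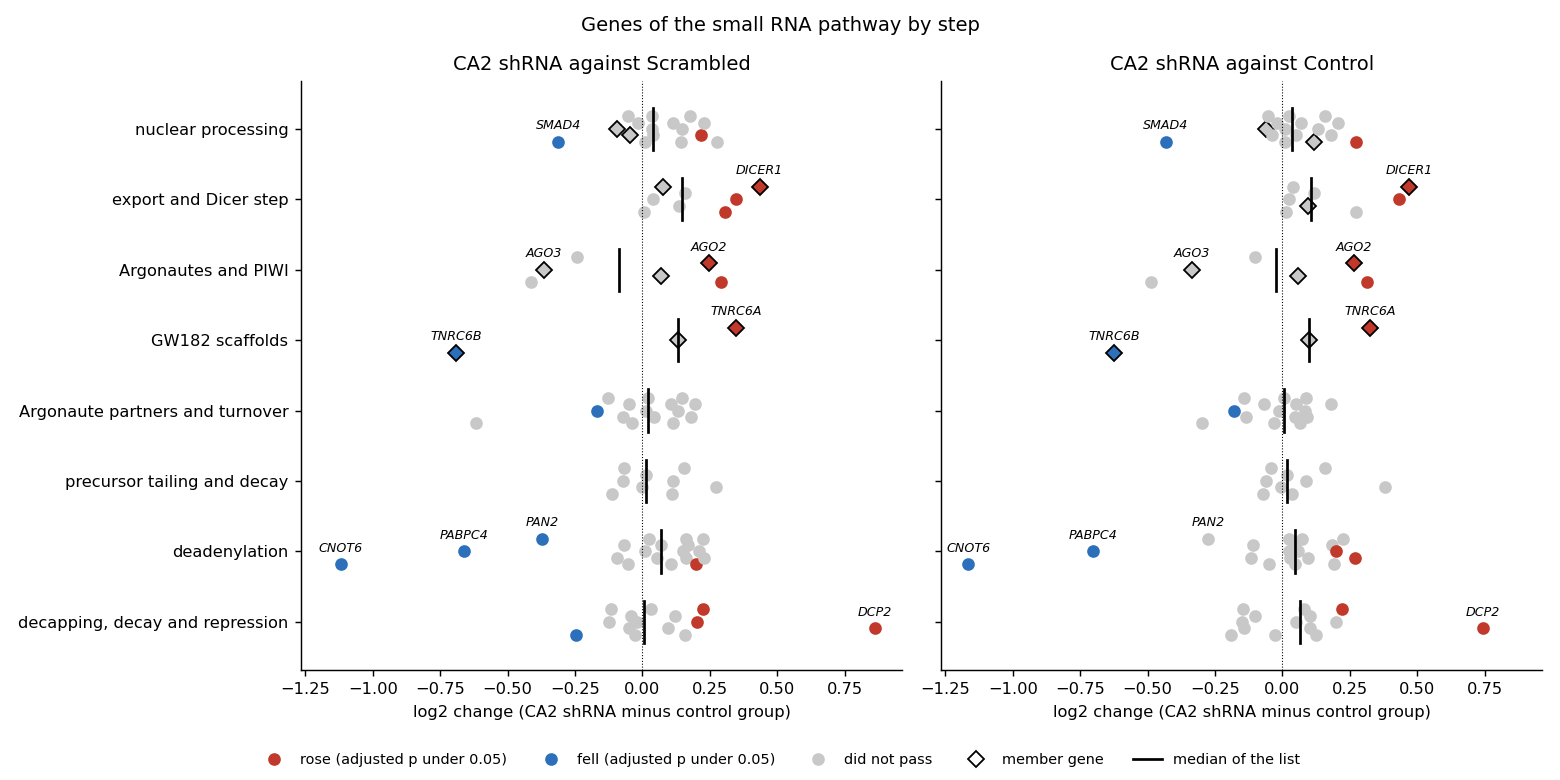
Log2 change (horizontal axis, CA2 shRNA minus Scrambled on the left, minus Control on the right) of the tested genes of 8 pathway lists, 1 point per gene; red points rose and blue points fell at an adjusted p under 0.05, diamonds are the 10 genes and vertical bars the list medians. CNOT6 lies farthest left at -1.12 and -1.17, and DCP2 farthest right at 0.86 and 0.74.

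The matches printed above were counted in the longest annotated 3′ UTR of 13959 tested genes, on the messenger strand. ACACCAA and CACCAAA overlap in ACACCAAA, which counts as 1 place. At least 1 of them was held by 2613 genes (18.7%), and ACACCAAA by 591 (4.23%). The words were picked from genes that fell in these same libraries, so their link with falling genes is a description without a test. The median log2 change against Scrambled was -0.26 for genes with ACACCAAA, -0.10 for the 2022 genes with a word of 7 bases alone and 0.04 for the 11346 genes with neither. The fall was called in 42.3%, 22.2% and 7.05% of these 3 sets, in that order.

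Of the 10 genes, 5 held a match: DICER1, AGO1, AGO2, AGO3 and TNRC6B. Long 3′ UTRs hold such words often. Among genes whose 3′ UTR was 0.5 to 2 times as long, a match was held by 35.4% for DICER1 (4270 bases), 60.6% for AGO1 (10921), 62.9% for AGO2 (11888), 73.0% for AGO3 (16755) and 64.4% for TNRC6B (12567). Directions were mixed among the holders: DICER1 and AGO2 rose, TNRC6B fell, and AGO1 and AGO3 did not pass. Thus 2 of the 3 rising, the 1 falling and 2 of the 6 other genes held one. Over all scanned genes, 137 of 1572 that rose and 698 of 1498 that fell against Scrambled held a match. None was found in the scanned 3′ UTR of DROSHA, DGCR8, XPO5, TNRC6A or TNRC6C, or in that of CA2.

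Among the 80 tested pathway genes outside the 10, a match was held by 0 of 8 that rose against Scrambled. It was held by 3 of 6 that fell (CNOT6, PABPC4 and UPF1) and by 14 of 66 that did not pass. Over all scanned genes it was held by 137 of 1572 that rose and by 698 of 1498 that fell. The counts of rising and falling pathway genes are thus near the shares over all genes. CNOT6 holds ACACCAAA at 2 places in 4205 bases, where 35.1% of genes of like length hold any match. PABPC4 holds 1 match in only 320 bases, where 4.27% do. Whether any of these letters plays a part in the change of its gene was not tested.

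**Figure D5:**
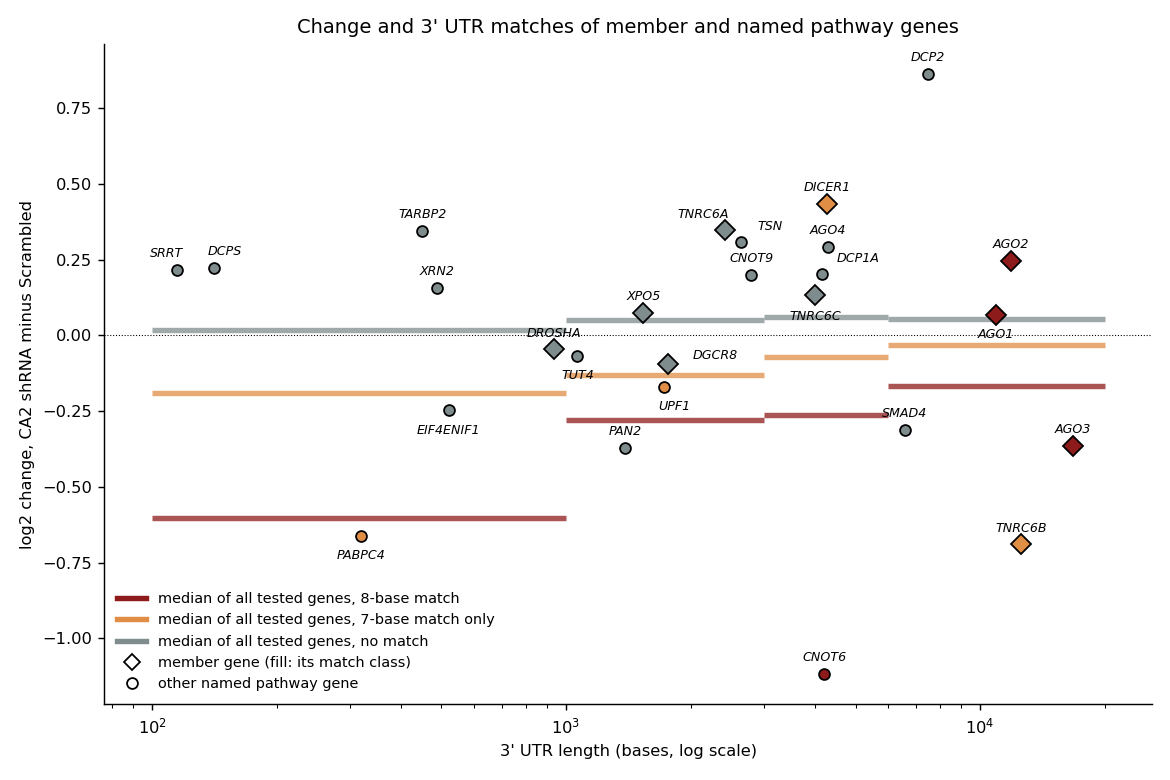
Log2 change (vertical axis, CA2 shRNA minus Scrambled) against 3′ UTR length in bases (log axis) for the 10 genes (diamonds) and the other named pathway genes (circles), filled by the longest match held; horizontal lines are medians of all tested genes in 4 length ranges, in the same colours. AGO1, AGO2 and DICER1 hold matches and lie above 0, while CNOT6, PABPC4, TNRC6B, UPF1 and AGO3 hold matches and lie below it.

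Scrambled and Control cells were compared last. None of the 10 genes passed by edgeR's quasi-likelihood test, and none had an unadjusted p under 0.05. None had libraries without overlap, against 6.81% of all tested genes. Over all tested genes 0 were called (0%), with 550 (2.78%) at an unadjusted p under 0.05, and DESeq2 called 1 gene and 0 of the 10. The median log2 change of the 10 genes was 0.02, and single genes ranged from -0.03 for TNRC6C to 0.21 for DGCR8. For DICER1 it was 0.04 (95% interval -0.20 to 0.27), for AGO2 0.02 (-0.16 to 0.20), for TNRC6A -0.02 (-0.17 to 0.13) and for TNRC6B 0.07 (-0.13 to 0.27). These intervals do not reach the estimated changes of the same genes in CA2 shRNA cells, which come from the same Scrambled and Control libraries. The intervals of those changes overlapped them for DICER1 (0.20 to 0.67 against Scrambled, 0.24 to 0.70 against Control). They also did for AGO2 (0.07 to 0.43 and 0.08 to 0.44), but not for TNRC6A or TNRC6B.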

How the data were processed

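RNA was sequenced from 9 libraries of C28/I2 cells, 3 in each of 3 groups. Per the labels' protocols, total RNA was extracted with the RNeasy Mini kit and depleted with FastSelect, a kit that removes ribosomal RNA. The authors deposited, for each library, a whole-number read count, a CPM value and an RPKM value for the same 60671 genes, per the file headers. When recomputed, the deposited CPM were the count over the library's total, scaled to a fixed sum, and the deposited RPKM were that CPM per kilobase of summed exon length. The submitters' processing notes name bcl2fastq, STAR 2.5.1a, featureCounts 1.4.6-p5 of Subread, and GRCh38. Not given in the sources used here are the annotation release, the strand setting and how multiply mapped reads were handled. Genes that overlap on opposite strands therefore have uncertain counts.

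Gene IDs were paired with symbols from a reference table (60401 genes) and from GENCODE 29 (246 more). No 2 libraries agreed within sampling noise (chi-square per gene at least 3.38). The deposited counts were filtered with filterByExpr of edgeR 4.0.16 (R 4.3.3), scaled with TMM factors (0.977 to 1.01) and tested over all 19812 genes with the quasi-likelihood F test, robust, with 1 term per group and 6 residual degrees of freedom. P-values were Benjamini-Hochberg adjusted over all tested genes, with a threshold of 0.05. The biological coefficient of variation was 7.94%. Printed CPM are TMM-scaled, and printed RPKM are as deposited. The standard error of a log2 change was taken from its F statistic, and the 95% interval from that error with 6 degrees of freedom. Family shares and sums were compared with exact two-sided permutation tests. The script was tested on simulated counts with known changes.

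The genes, the pathway lists, the comparisons and the UTR words were chosen with earlier results of these data known. Besides the 10 genes and CA2, each list's called genes were named up to 4 by size of change against Scrambled, or its 2 best expressed genes where none was called. SAFB2 was named after its values were seen, as was every gene beside a shared exon. The 3′ UTR words were searched in the transcript with the longest 3′ UTR of each gene in GENCODE 29. With 3 libraries a group, only differences larger than their spread, which includes counting error, can be seen. DESeq2 1.42.0 was 1 of the alternatives, which also changed the scaling, the filter, the libraries and the replicate term.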

Additional observations from a re-analysis of the deposited data

How the results depend on the processing

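The log2 changes of the 10 genes and the counts of the 10 and of the pathway genes called were computed under 18 alternatives: 3 other scalings, 2 other filters, DESeq2, a fit of 2 groups, a replicate term, leaving out each of the 9 libraries, and leaving out Scrambled 2 and Control 3 together. The number of the 10 genes called was 3 to 5 in both CA2 shRNA comparisons and 0 in Scrambled against Control, and no called gene changed sign. The highest adjusted p over the alternatives, against Scrambled and against Control, was 0.0388 and 0.0289 for DICER1, 0.00684 and 0.0128 for TNRC6A, and 0.000525 and 0.000995 for TNRC6B. AGO2 passed under 13 and 15 of the 18 alternatives. AGO3 passed under 5 against Scrambled and 4 against Control. With a DESeq2 test its adjusted p was 0.0359 against Scrambled, and without a filter 0.00162. The pathway count, 18 against Scrambled and 15 against Control, ranged from 9 to 30 and from 10 to 23 when 1 library was left out, and was 29 against Scrambled without Scrambled 2 and Control 3. The cause was not tested. Over all genes the number called ranged from 2059 to 4289 against Scrambled, from 1962 to 3662 against Control, and from 0 to 7 in Scrambled against Control.

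The deviations of same-numbered libraries from their group means had low correlations (-0.185 to 0.105). The labels do not say whether the numbers pair libraries, and with 3 libraries a group these correlations cannot decide it. With a replicate block the 10 genes gave 4 calls against Scrambled, where AGO2 was at 0.051 and AGO3 at 0.026, and 5 against Control, where AGO3 was at 0.0398. The pathway count with the block was 19 in both comparisons. With shares taken from CPM and not divided by length, the TNRC6B share was 15.8 points lower in CA2 shRNA than in Scrambled cells and 14.3 points lower than in Control cells. Using the principal transcript of each gene for the 3′ UTR, 5 of the 10 genes again held a match. Depth limits CA2, with 15 to 66 reads a library, and some pathway genes with fewer. The changes of CA2 and of the single pathway genes outside the 10 were not recomputed under these alternatives.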
